A study of Homo sapiens with 12 samples.

Results

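The metallothioneins and zinc handling genes described here are 9 named genes of 33704 listed in the 3 deposited count tables of a study of Jurkat cells, a line grown from a human acute leukaemia of T cells. They are the metallothionein genes MT1E, MT1F, MT1G, MT1M, MT1X and MT2A, the metal-sensing transcription factor gene MTF1, the zinc exporter gene SLC30A1 and the zinc importer gene SLC39A10. Each was listed by name and matched to its Ensembl identifier, and no measured value entered that matching. The list itself was drawn up with earlier results of these data known. The table of the TAL1 comparison listed 7 of the 9 genes, that of the UTX comparison 8 and that of the GSK-J4 comparison all 9.

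Stranded mRNA libraries were made for 6 groups of 2. TAL1-KD cells carried a doxycycline-inducible shRNA against TAL1, a blood stem cell transcription factor, and received 5 µg/ml doxycycline for 72 h, and TAL1-control cells of that line had no doxycycline. UTX-KD and UTX-control cells were the same pair for an inducible shRNA against UTX, the histone demethylase encoded by KDM6A. These 4 groups were grown in Tet-free serum with blasticidin and G418. J4-2uM cells received 2 µM GSK-J4, a small-molecule inhibitor of KDM6 demethylases, for 72 h, and J4-control cells received its DMSO vehicle, both in ordinary serum without those selection drugs. How each shRNA line was derived, and whether it was 1 clone, is not given in the labels. The labels do not say that replicates were separate cultures, so p-values measure the spread between these libraries, which may be technical.

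Counted reads ranged from 55524079 to 82534711 per library. The targeted mRNAs were not called lower by the test used here, although both KD values of each lay below both of its control values. TAL1 averaged 243 ± 15.03 CPM (counted reads scaled to the TMM-adjusted library size) in libraries labelled TAL1-KD and 256 ± 1.96 in TAL1-control libraries (SD, n = 2 each; log2 fold change -0.07, edgeR adjusted p = 0.490). KDM6A averaged 29.4 ± 0.0862 CPM in libraries labelled UTX-KD and 31.1 ± 0.253 in UTX-control libraries (SD, n = 2 each; log2 fold change -0.08, edgeR adjusted p = 0.103). Directions drawn from these 2 comparisons are therefore those of the libraries labelled TAL1-KD and UTX-KD. All of those libraries had doxycycline and none of their controls did. Doxycycline and the shRNA it induced therefore cannot be told apart. Where it was not the target, TAL1 mRNA was called lower with GSK-J4 (log2 fold change -0.66, edgeR adjusted p = 6.02e-10) and with UTX-KD (-0.12, edgeR adjusted p = 0.00155). KDM6A mRNA was called higher with GSK-J4 (0.44, edgeR adjusted p = 1.24e-07). In the TAL1 comparison KDM6A was not called (0.19, edgeR adjusted p = 0.0576). The 7 T-lineage markers summed to between 1618 and 3096 CPM per library. Of the markers of other lineages, the 4 myeloid ones summed to at most 0.555 CPM, the 3 epithelial ones to at most 1.91 CPM and the 2 erythroid ones to at most 0.0140 CPM, and CD79A, a B-lineage marker, had between 39.5 and 92.0 CPM.

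Metallothioneins are small cysteine-rich proteins that bind zinc, copper and cadmium in the cytosol. Free zinc is sensed by MTF1, a zinc finger protein that binds metal response elements (MREs) in promoters and switches on metallothionein genes and SLC30A1, whose product carries zinc out of the cell across the plasma membrane. SLC39A10 carries zinc into the cell, and in mouse its transcription is held down by MTF1. The same system buffers zinc in T cells, where zinc also takes part in signalling from the antigen receptor.

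The promoters are shown because MTF1 acts through a short element that can be read in them. RefSeq, on GRCh38.p14, had an entry for 5 of the 9 genes, namely MT1X, MT2A, MTF1, SLC30A1 and SLC39A10. The 250 bases before the annotated start are printed 5′ to 3′ on the gene's strand for the 3 genes with an entry that rose with GSK-J4 and for SLC39A10, which fell. They lie at chr16:56608334-56608583 (MT2A, plus strand), chr16:56682220-56682469 (MT1X, plus strand), chr1:211579162-211579411 (SLC30A1, minus strand) and chr2:195656708-195656957 (SLC39A10, the first of its 2 annotated starts, plus strand). Capitals mark matches to the MRE core, searched as TGCACNC or TGCGCNC on both strands, and no matches overlapped.
MT2A: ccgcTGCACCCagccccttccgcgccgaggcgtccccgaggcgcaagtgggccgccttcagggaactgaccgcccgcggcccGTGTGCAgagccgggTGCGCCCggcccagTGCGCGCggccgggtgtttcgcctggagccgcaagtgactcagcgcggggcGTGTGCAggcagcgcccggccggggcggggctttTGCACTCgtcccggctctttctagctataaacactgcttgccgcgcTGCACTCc
MT1X: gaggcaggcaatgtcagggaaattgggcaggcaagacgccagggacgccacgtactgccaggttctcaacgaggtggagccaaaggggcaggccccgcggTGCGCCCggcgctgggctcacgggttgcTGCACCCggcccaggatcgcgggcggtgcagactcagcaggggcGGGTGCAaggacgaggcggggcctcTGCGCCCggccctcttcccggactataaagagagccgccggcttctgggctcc
SLC30A1: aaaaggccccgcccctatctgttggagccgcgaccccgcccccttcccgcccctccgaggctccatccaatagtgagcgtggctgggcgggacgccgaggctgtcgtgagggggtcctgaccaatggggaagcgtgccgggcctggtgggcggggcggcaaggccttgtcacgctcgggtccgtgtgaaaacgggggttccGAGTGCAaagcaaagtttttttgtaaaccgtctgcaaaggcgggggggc
SLC39A10: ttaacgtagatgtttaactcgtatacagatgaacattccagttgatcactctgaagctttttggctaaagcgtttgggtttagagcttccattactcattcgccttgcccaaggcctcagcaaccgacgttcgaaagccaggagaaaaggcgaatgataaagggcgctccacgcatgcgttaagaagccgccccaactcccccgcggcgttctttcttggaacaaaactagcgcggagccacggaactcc
MT2A held 7 matches in these 250 bases, 5 on its own strand and 2 on the other. MT1X held 4, of which 3 were on its own strand, and SLC30A1 held 1, on the other strand. MTF1 and both RefSeq starts of SLC39A10 held none. Of 35116 RefSeq promoters, 24.83% held at least 1 match in the same 250 bases, 0.370% held at least 4 and 0.0313% held at least 7. In the 300-base window that runs on to 50 bases past the start, the counts were 8 for MT2A, 4 for MT1X, 2 for SLC30A1, 0 for MTF1, and 0 and 1 for the starts of SLC39A10. In that window 29.55% of promoters held at least 1 match, 8.60% at least 2, 0.601% at least 4 and 0.0199% at least 8. A match to these letters is a description of the sequence, and no binding was measured.

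**Figure D1:**
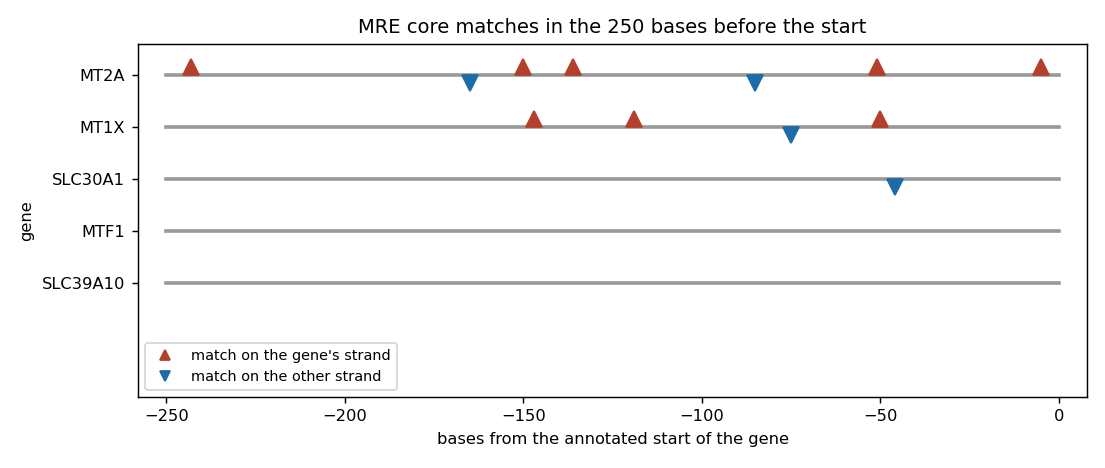
Positions of MRE core matches in the 250 bases before the annotated start of 5 genes (x axis, bases from the start; 1 line per gene). Triangles above the line are matches on the gene's strand and those below are on the other strand; MT2A has 7, MT1X 4, SLC30A1 1, MTF1 and SLC39A10 none.

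In cells given GSK-J4, metallothionein mRNA and the exporter mRNA rose together and the importer mRNA fell. MT2A, MT1X and MT1F were each about 8-fold higher, SLC30A1 was 6.05-fold higher, and SLC39A10 was 0.694 of its J4-control level. Of the 9 genes, 7 passed the filter on low counts, MT1E only through its J4-2uM libraries, so that it had to differ and is described by its reads alone. Of the other 6, 4 were called higher and 1 lower in J4-2uM cells (edgeR quasi-likelihood test, two-sided, adjusted p under 0.05). Among all genes tested in this comparison 37.9% were called higher and 36.9% lower. The median log2 fold change of the 6 genes was 2.78, against 0.01 over all genes tested.

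Some cell type markers also had separate values in the 2 groups of this comparison. CD79A, a B-cell receptor component, had 92.0 and 83.7 CPM in J4-2uM libraries, against 39.5 and 39.6 in J4-control libraries, and MS4A1 had 0.299 and 0.379 CPM in J4-2uM libraries, against 0.0763 and 0.0985 in J4-control libraries. KRT8, a keratin gene, had 1.87 and 1.78 CPM in J4-2uM libraries, against 0.591 and 0.605 in J4-control libraries, and KRT18 had at most 3 reads in each of the 4. The T-lineage markers went both ways. CD247 had 81.3 and 81.02 CPM in J4-2uM libraries, against 144 and 144 in J4-control libraries. CD3G had 92.98 and 88.5 CPM in J4-2uM libraries, against 139.9 and 139.7 in J4-control libraries. CD28 and LCK were also lower in both J4-2uM libraries. CD5 was higher, with 108 and 107 CPM in J4-2uM libraries, against 79.6 and 76.5 in J4-control libraries. CD3E was higher too, with 517 and 498 CPM against 459 and 475, and the values of CD3D overlapped. The sum of all 7 was 1677 and 1618 CPM in J4-2uM libraries and 1740 and 1756 in J4-control libraries. The part of these markers' shifts in the results below was not tested.

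MT2A, the most abundant metallothionein mRNA of these cells, had 221 and 153 CPM in J4-2uM libraries, against 23.3 and 24.5 in J4-control libraries. Both J4-2uM values lay far above both J4-control values. The log2 fold change was 2.97 (SE 0.13, edgeR adjusted p = 2.73e-10), which is 7.81-fold. MT1X had 47.6 and 34.1 CPM in J4-2uM libraries, against 4.65 and 5.14 in J4-control libraries. Its groups did not overlap either, and its log2 fold change was 3.05 (SE 0.14, edgeR adjusted p = 4.00e-10). MT1F had 11.4 and 8.38 CPM in J4-2uM libraries, against 1.58 and 0.915 in J4-control libraries. The log2 fold change of MT1F was 3.04 (SE 0.19, edgeR adjusted p = 9.04e-09), again without overlap.

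The first J4-2uM library was the higher one for all 3 of these genes. It exceeded the second by 1.45 times for MT2A, 1.396 times for MT1X and 1.36 times for MT1F. For SLC30A1 the same ratio was 1.03 and for SLC39A10 it was 0.958. The spread of the metallothioneins between the GSK-J4 replicates was thus wider than that of the transporters, and still small beside the difference from vehicle.

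The remaining metallothioneins were rare transcripts. MT1E had 67 and 50 reads in J4-2uM libraries, against 1 and 1 in J4-control libraries. Its ratio over summed reads was 48.8 (exact 95% interval from 13.2 to 408, counting error only). MT1G had 11 and 8 reads in J4-2uM libraries and 0 in both J4-control libraries. It did not pass the filter. Its level in J4-2uM libraries was 5.28 times a floor of 3 reads over the J4-control group. That ratio takes no account of counting error in the J4-2uM reads, so it is not a lower bound. MT1M had 1 read in each J4-2uM library and 0 in both J4-control libraries, so no fold is given. In the authors' deposited table MT1G had a log2 fold change of 2.23 with an adjusted p of 0.00854.

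SLC30A1, whose product exports zinc, had 100.03 and 97.2 CPM in J4-2uM libraries, against 17.1 and 15.6 in J4-control libraries. The replicates lay close together in both groups, and the rise of 2.60 on the log2 scale had the smallest error of the genes that rose (SE 0.05, edgeR adjusted p = 8.35e-14). SLC39A10, the importer, had 36.5 and 38.1 CPM in J4-2uM libraries, against 55.03 and 52.5 in J4-control libraries. All J4-2uM values were below all J4-control values, and SLC39A10 fell by 0.53 on the log2 scale (SE 0.04, edgeR adjusted p = 6.89e-08). MTF1, the sensor, had 27.1 and 28.8 CPM in J4-2uM libraries and 30.02 and 29.9 in J4-control libraries. Its values did not overlap, but the log2 fold change of -0.10 (SE 0.05) missed the threshold (edgeR adjusted p = 0.0575). MTF1 was called lower with the size factors of DESeq2 (edgeR adjusted p = 0.0406), with a length and GC offset (0.0145) and without the second J4-2uM library (0.00731).

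**Figure D2:**
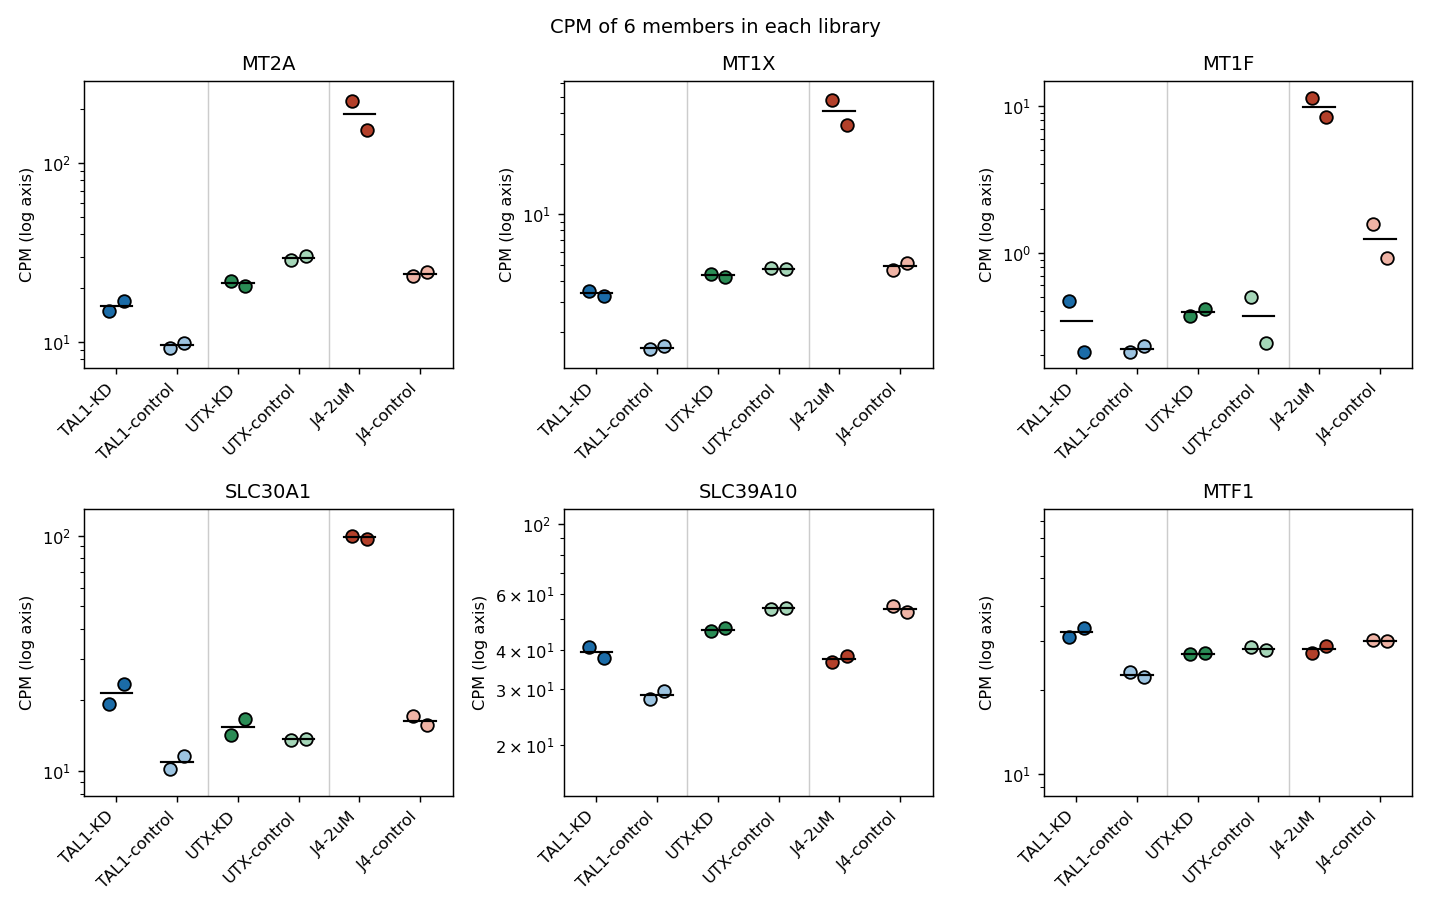
CPM (y axes, log scale) of 6 genes in each of the 12 libraries, by group and scaled within each comparison; each point is 1 library and each bar the mean of 2. MT2A, MT1X, MT1F and SLC30A1 stand far above all other groups in J4-2uM libraries, SLC39A10 is lower in J4-2uM than in J4-control libraries, and MTF1 is higher in TAL1-KD than in TAL1-control libraries.

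Transcript length and shared sequence were checked because metallothionein transcripts are short and alike. Over the 2067 tested genes whose longest transcript was under 1000 bases, the median log2 fold change in J4-2uM cells was -0.18. Of the 50-base windows in the annotated transcripts, 18.3% of those of MT1X and 16.5% of those of MT1G were shared with another gene, against 3.02% for MT2A, 1.22% for MT1F and 0 for SLC30A1 and SLC39A10. At 100 bases only MT1X shared windows (11.3%), all with AC026461.1, an overlapping annotated gene that has no row in the tables. How reads with several positions were counted is not given in the sources used here, so the values of MT1E, MT1G, MT1M and MT1X are uncertain to that extent. In bulk RNA, a change in the number of cells that express a gene and a change in RNA per cell cannot be told apart.

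In libraries labelled TAL1-KD, mRNAs of MT1X and MT2A, the exporter, the importer and the sensor all rose. Of the 6 genes that passed the filter, 5 were called higher and 0 lower, by 1.37-fold to 2.10-fold. Among all genes tested in this comparison 26.3% were called higher and 27.9% lower. The median log2 fold change of the 6 genes was 0.67, against -0.02 over all genes tested. The spread between replicates was the widest of the 3 comparisons, with a biological coefficient of variation of 8.40%, against 2.30% for the UTX and 2.69% for the GSK-J4 comparison. The T-lineage markers summed to 2715 and 3096 CPM in TAL1-KD libraries, against 2218 and 2338 in TAL1-control libraries. CD3D had 483 and 608 CPM in TAL1-KD libraries, against 275 and 299 in TAL1-control libraries. CD3E and LCK were also higher in both TAL1-KD libraries, CD28 was lower, and CD3G, CD247 and CD5 overlapped. CD79A was lower, at 62.1 and 65.6 CPM against 70.3 and 72.3. The part of these shifts in the results for TAL1-KD was not tested.

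MT1X had 3.498 and 3.28 CPM in TAL1-KD libraries, against 1.58 and 1.65 in TAL1-control libraries. The groups did not overlap, and the log2 fold change was 1.07 (SE 0.16, edgeR adjusted p = 0.00164). MT2A had 14.9 and 16.9 CPM in TAL1-KD libraries, against 9.25 and 9.89 in TAL1-control libraries. Its log2 fold change was 0.73 (SE 0.11, edgeR adjusted p = 0.00187), also without overlap. SLC30A1 had 19.2 and 23.5 CPM in TAL1-KD libraries, against 10.2 and 11.6 in TAL1-control libraries. It rose by 0.98 on the log2 scale (SE 0.13, edgeR adjusted p = 0.00104), and both TAL1-KD values exceeded both TAL1-control values.

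MTF1 had 30.9 and 33.4 CPM in TAL1-KD libraries, against 23.2 and 22.2 in TAL1-control libraries. The groups were separate, and the log2 fold change was 0.50 (SE 0.09, edgeR adjusted p = 0.00303). SLC39A10 had 40.8 and 37.8 CPM in TAL1-KD libraries, against 28.0 and 29.6 in TAL1-control libraries. The importer rose by 0.45 on the log2 scale (SE 0.09, edgeR adjusted p = 0.00441), a call that was lost without the first TAL1-control library (edgeR adjusted p = 0.0830). MT1F had 28 and 13 reads in TAL1-KD libraries and 16 and 16 in TAL1-control libraries. With so few reads its groups overlapped and it was not called (log2 fold change 0.61, SE 0.42, edgeR adjusted p = 0.255), and without the second TAL1-KD library it was (1.08, edgeR adjusted p = 0.0284). MT1E had 1 and 0 reads in TAL1-KD libraries and 1 and 3 in TAL1-control libraries, and MT1G and MT1M were not listed. Over the 1769 tested genes whose longest transcript was under 1000 bases, the median log2 fold change in TAL1-KD libraries was 0.11.

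In libraries labelled UTX-KD the changes were small and went both ways. Of the 6 genes that passed the filter, 1 was called higher, 2 were called lower and 3 were not called. Among all genes tested in this comparison 25.2% were called higher and 25.3% lower, so these shares of called genes were near those of all genes. The median log2 fold change of the 6 genes was -0.09, against 0.01 over all genes tested.

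MT2A had 21.9 and 20.6 CPM in UTX-KD libraries, against 28.8 and 30.2 in UTX-control libraries. Both UTX-KD values were below both UTX-control values, and MT2A fell by 0.47 on the log2 scale (SE 0.05, edgeR adjusted p = 2.85e-07). SLC39A10 had 45.8 and 46.7 CPM in UTX-KD libraries, against 54.00 and 54.1 in UTX-control libraries. It fell by 0.22 on the log2 scale (SE 0.04, edgeR adjusted p = 4.66e-05), again with separate groups. SLC30A1 had 14.2 and 16.6 CPM in UTX-KD libraries, against 13.6 and 13.6 in UTX-control libraries. Its rise of 0.18 on the log2 scale (SE 0.07, edgeR adjusted p = 0.0316) rested on the second UTX-KD library, without which it was 0.06 (edgeR adjusted p = 0.441). The call was also lost without the first UTX-control library (edgeR adjusted p = 0.0514) and in the Wald test of DESeq2 (adjusted p = 0.130).

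MT1X had 4.41 and 4.24 CPM in UTX-KD libraries and 4.76 and 4.70 in UTX-control libraries. Its values did not overlap, and the log2 fold change of -0.13 (SE 0.08) was not called (edgeR adjusted p = 0.223). MTF1 had 26.8 and 27.1 CPM in UTX-KD libraries and 28.4 and 27.7 in UTX-control libraries. Its log2 fold change of -0.06 (SE 0.04) missed the threshold (edgeR adjusted p = 0.260), and with a length and GC offset it was called lower (0.0378). MT1F had 27 and 29 reads in UTX-KD libraries and 40 and 14 in UTX-control libraries. The 2 UTX-control libraries of MT1F lay on either side of the UTX-KD ones, and its log2 fold change was 0.00 (SE 0.31). MT1E and MT1G had at most 1 read in any library of this comparison, and MT1M was not listed.

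**Figure D3:**
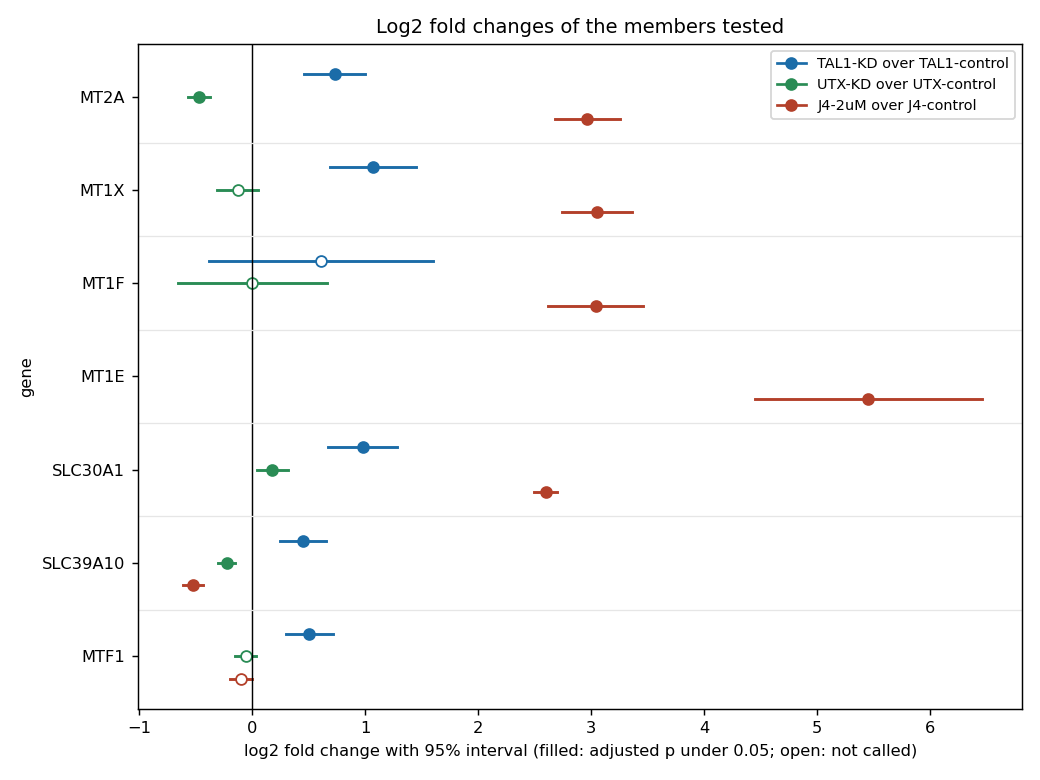
Log2 fold changes (x axis) with 95% intervals for 7 genes in the 3 comparisons, MT1E having passed the filter only through J4-2uM libraries; filled points have an adjusted p under 0.05 and open points do not. MT2A, MT1X, MT1F and SLC30A1 lie between 2.60 and 3.05 with GSK-J4, and SLC39A10 is above 0 in the TAL1 comparison and below 0 in the other 2.

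Read together, the 6 metallothionein genes gave 281 and 196 CPM in J4-2uM libraries and 29.5 and 30.6 in J4-control libraries. The ratio of group means was 7.94. They gave 18.8 and 20.4 CPM in TAL1-KD libraries and 11.1 and 11.8 in TAL1-control libraries, a ratio of 1.71. In UTX-KD libraries the sum was 26.7 and 25.2 CPM and in UTX-control libraries 34.1 and 35.1, a ratio of 0.750. The sum therefore stood apart between groups in all 3 comparisons, upward with GSK-J4 and TAL1-KD and downward with UTX-KD.

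The shares of the single genes in that sum were also compared. MT2A took 78.3% ± 0.535 of the metallothionein reads in J4-2uM libraries and 79.5% ± 0.971 in J4-control libraries (SD, n = 2 each). MT1X took 17.2% ± 0.337 in J4-2uM libraries and 16.3% ± 0.721 in J4-control libraries (SD, n = 2 each). In the TAL1 comparison the MT1X share was 17.3% ± 1.74 in TAL1-KD libraries and 14.1% ± 0.237 in TAL1-control libraries (SD, n = 2 each). In the UTX comparison it was 16.7% ± 0.216 in UTX-KD libraries and 13.7% ± 0.417 in UTX-control libraries (SD, n = 2 each), so MT1X formed a larger part of a smaller sum. MT1F took 4.16% ± 0.158 in J4-2uM libraries and 4.18% ± 1.68 in J4-control libraries, and at most 1.95% on average in the other groups (SD, n = 2 each). MT1E took 0.334% ± 0.0338 in J4-2uM libraries and 0.0553% ± 0.0132 in J4-control libraries (SD, n = 2 each), which rests on 1 read in each J4-control library. The 15 other metallothionein genes and pseudogenes looked for added at most 1.09% to the family's reads in any library. Among them MT1JP, a pseudogene, was tested with GSK-J4 and was not called, with 34 reads in J4-2uM libraries and 27 in J4-control libraries (log2 fold change 0.07, SE 0.41, edgeR adjusted p = 0.881).

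**Figure D4:**
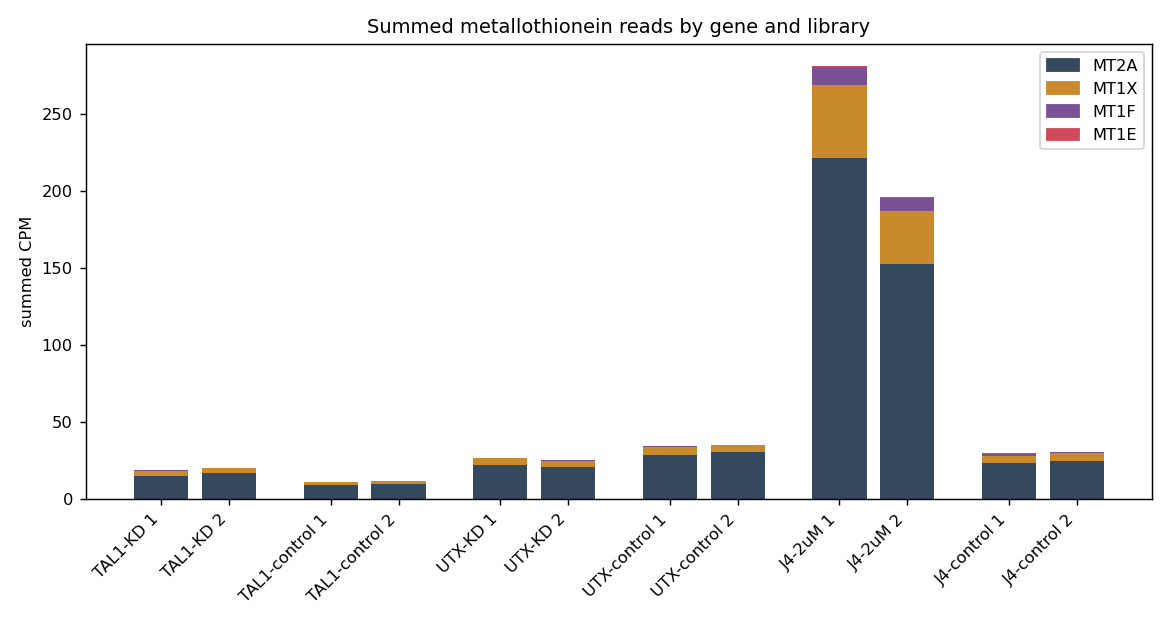
Summed CPM of the metallothionein genes (y axis) in each library, stacked by gene, for MT2A, MT1X, MT1F and MT1E; MT1G and MT1M are too few to show. The J4-2uM libraries reach 281 and 196, and no library of the other groups exceeds 35.1.

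Levels were set side by side per kilobase of exon with 1 scaling over all 12 libraries, in CPM per kilobase. MT2A was the highest of the 9 genes in every group. In J4-2uM cells it stood at 131 ± 35.3, followed by MT1X at 20.9 ± 5.10 and SLC30A1 at 16.4 ± 0.508 (SD, n = 2 each), and MT1X and SLC30A1 differed by less than the SD of MT1X. Below them came SLC39A10 at 4.90 ± 0.0973 and MT1F at 4.76 ± 1.07, whose libraries overlapped, and MTF1 at 3.16 ± 0.0982 (SD, n = 2 each). In J4-control cells the order was MT2A at 17.0 ± 0.653, SLC39A10 at 7.18 ± 0.233, MTF1 at 3.45 ± 0.00353, SLC30A1 at 2.76 ± 0.173, MT1X at 2.55 ± 0.180 and MT1F at 0.611 ± 0.231 (SD, n = 2 each). SLC30A1 and MT1X overlapped there. MT1X thus ranked 2 of 9 in J4-2uM cells and 5 of 9 in J4-control cells, and SLC39A10 ranked 4 in J4-2uM cells and 2 in J4-control cells.

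In TAL1-KD cells the order of levels was MT2A at 13.1 ± 1.45, SLC39A10 at 6.09 ± 0.208, MTF1 at 4.30 ± 0.324, SLC30A1 at 4.19 ± 0.675, MT1X at 2.05 ± 0.0506 and MT1F at 0.193 ± 0.0999 (SD, n = 2 each), with MTF1 and SLC30A1 overlapping. TAL1-control cells had the same order, with MT2A at 7.95 ± 0.385, SLC39A10 at 4.49 ± 0.185, MTF1 at 3.05 ± 0.0887, SLC30A1 at 2.14 ± 0.198, MT1X at 0.981 ± 0.0308 and MT1F at 0.127 ± 0.00863 (SD, n = 2 each). UTX-KD cells kept that order as well, with MT2A at 16.8 ± 0.770, SLC39A10 at 6.86 ± 0.0883, MTF1 at 3.44 ± 0.0186, SLC30A1 at 2.88 ± 0.308, MT1X at 2.50 ± 0.0701 and MT1F at 0.213 ± 0.0175 (SD, n = 2 each). In UTX-control cells MT1X at 2.67 ± 0.0379 stood above SLC30A1 at 2.49 ± 0.00519 (SD, n = 2 each), below MT2A at 22.7 ± 0.628, SLC39A10 at 7.82 ± 0.0310 and MTF1 at 3.503 ± 0.0747, and MT1F stood at 0.198 ± 0.0967. Among the 3 control groups MT2A was lowest in TAL1-control cells and highest in UTX-control cells. MT1E, the next gene down with GSK-J4, had a level of 0.680 ± 0.111 in J4-2uM cells and 0.0146 ± 0.00310 in J4-control cells (SD, n = 2 each).

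Whether 2 responses differed was tested in edgeR with an interaction term, fitted to the 8 libraries of both comparisons. The comparisons differ in cell line and treatment, and that of GSK-J4 also differs from the other 2 in medium and vehicle. These cannot be told apart. The GSK-J4 response minus the TAL1-KD response was called for all 6 genes other than MT1E, 4 above 0 and 2 below, where 27.6% of all genes tested were above and 26.3% below. It was 2.21 for MT2A (SE 0.22, edgeR adjusted p = 1.50e-05), 1.95 for MT1X (SE 0.25), 2.38 for MT1F (SE 0.63) and 1.59 for SLC30A1 (SE 0.15). SLC39A10, which rose with TAL1-KD and fell with GSK-J4, had a difference of -1.01 (SE 0.09, edgeR adjusted p = 8.81e-06), and MTF1 had -0.64 (SE 0.10, edgeR adjusted p = 0.000268). MT1E, which entered these fits only through its J4-2uM libraries, is not counted here. Without the second TAL1-control library the call of MT1F was lost (edgeR adjusted p = 0.0505).

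The GSK-J4 response minus the UTX-KD response was called above 0 for 4 genes and below 0 for 1, against 28.3% and 30.2% of all genes tested. The difference was 3.45 for MT2A (SE 0.15, edgeR adjusted p = 1.44e-17), 3.19 for MT1X (SE 0.19), 3.05 for MT1F (SE 0.45) and 2.43 for SLC30A1 (SE 0.08). SLC39A10 fell in both comparisons, by 0.29 more on the log2 scale with GSK-J4 (SE 0.06, edgeR adjusted p = 5.22e-05). MTF1 was not called, and its difference of -0.03 had a 95% interval from -0.16 to 0.10. For MT1E the difference could not be estimated, since both UTX-control libraries had 0 reads.

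The TAL1-KD response minus the UTX-KD response was called above 0 for 5 genes and below 0 for 0, against 25.0% and 25.1% of all genes tested. MT2A, which rose in one comparison and fell in the other, differed by 1.24 (SE 0.12, edgeR adjusted p = 7.79e-05). MT1X differed by 1.23 (SE 0.15), SLC30A1 by 0.83 (SE 0.16), SLC39A10 by 0.71 (SE 0.08) and MTF1 by 0.60 (SE 0.09). MT1F was not called, and its difference of 0.63 had a 95% interval from -0.70 to 1.97.

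Over the 12 libraries, with each gene centred on the mean of its comparison's 4 libraries, MT2A and MT1X had a Pearson r of 0.986 and MT1X and SLC30A1 one of 0.980. SLC39A10 had an r of -0.54 with MT2A and -0.51 with SLC30A1. MTF1 had -0.01 with MT2A, 0.11 with SLC30A1 and 0.74 with SLC39A10. These are descriptions over libraries that share treatments and differ in depth. Centring left in the differences between treated and control libraries given above. For MT2A, MT1X and SLC30A1 those were largest with GSK-J4, so they weigh on these r values and on the likeness below.

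Among 10950 genes tested in all 3 comparisons at a mean of at least 5 CPM, metallothioneins left out, the 5 most like MT2A were OAS3, TAF3, WDR83, FRG1 and TACO1, with r from 0.980 to 0.990 over 12 libraries. OAS3 encodes an interferon-induced enzyme that makes oligoadenylates, and its log2 fold changes were 0.98 with GSK-J4, 0.18 with TAL1-KD and -0.13 with UTX-KD. The 5 most like MT1X were XRRA1, OBI1, TRAFD1, DBR1 and PAAF1 (r from 0.983 to 0.987). Those most like SLC30A1 were RNF25, MKRN2, RBMX2, ALKBH3 and GADD45A (r from 0.991 to 0.993), of which GADD45A, a stress-induced growth arrest gene, had a log2 fold change of 1.19 with GSK-J4. All 15 changed less with GSK-J4 than the gene they resembled, the largest value being that of GADD45A.

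The other zinc transporters were followed to see how far the exporter and importer stood for their families. Of 9 other SLC30 exporter genes, 8 passed the filter with GSK-J4. SLC30A2 and SLC30A8 did so only through their J4-2uM libraries, with means of 0.190 and 0.224 CPM there and 0.0758 and 0.0733 CPM in J4-control libraries, and are not counted. Of the other 6, 2 were called higher and 2 lower, with a median log2 fold change of 0.09, where 37.9% of all genes tested were called higher and 36.9% lower and their median was 0.01. SLC30A4, which loads zinc into vesicles, averaged 33.9 ± 1.38 CPM in J4-2uM libraries and 19.2 ± 0.112 in J4-control libraries (SD, n = 2 each), a log2 fold change of 0.82 (SE 0.05). SLC30A3, known for filling synaptic vesicles with zinc, rose by 0.51 (SE 0.05). SLC30A9, linked to mitochondrial zinc, averaged 62.5 ± 1.27 CPM in J4-2uM libraries and 101.05 ± 2.36 in J4-control libraries (SD, n = 2 each) and fell by 0.69 (SE 0.04). SLC30A6, a Golgi protein that pairs with SLC30A5, fell by 0.91 on the log2 scale (SE 0.05). Each of these 4 had an edgeR adjusted p of at most 2.41e-07, and SLC30A4 had the largest rise among the exporters above 1 CPM, against 2.60 for SLC30A1.

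Of 13 other SLC39 importer genes, 11 were tested with GSK-J4, 6 were called higher and 2 lower, with a median log2 fold change of 0.12, beside the same shares over all genes. SLC39A7, which releases zinc from the endoplasmic reticulum, rose by 0.64 (SE 0.03), SLC39A13 by 0.53 (SE 0.04), SLC39A1, a plasma membrane importer, by 0.47 (SE 0.03) and SLC39A9 by 0.36 (SE 0.03). Besides SLC39A10, the importers called lower were SLC39A4, at -0.31 (SE 0.05), and SLC39A11, at -0.19 (SE 0.06).

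In libraries labelled TAL1-KD, 10 of the other importers were tested, 7 were called higher and 0 lower, with a median log2 fold change of 0.45, where 26.3% of all genes tested were called higher and 27.9% lower and their median was -0.02. SLC39A1 averaged 165 ± 23.5 CPM in TAL1-KD libraries and 77.9 ± 2.09 in TAL1-control libraries (SD, n = 2 each), and rose by 1.08 (SE 0.11). SLC39A4, the importer mutated in acrodermatitis enteropathica, rose by 1.25 (SE 0.16), SLC39A7 by 1.05 (SE 0.11) and SLC39A3 by 0.89 (SE 0.14). The rise of SLC39A10 was smaller than each of these. Of 7 other exporters tested, 1 was called higher and 2 lower, SLC30A5 at 0.34 (SE 0.12), SLC30A9 at -0.62 (SE 0.13) and SLC30A6 at -0.57 (SE 0.19), and the median of the 7 was -0.13.

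In libraries labelled UTX-KD, 3 of 10 other importers were called higher and 2 lower, and 1 of 7 other exporters higher and 2 lower. Over all genes tested 25.2% were called higher and 25.3% lower. The medians were 0.03 for the importers, -0.04 for the exporters and 0.01 for all genes on the log2 scale. SLC39A13 rose by 0.42 (SE 0.04), SLC30A4 by 0.32 (SE 0.04) and SLC39A11 by 0.26 (SE 0.05), and SLC39A4 fell by 0.29 (SE 0.06). No change in these families reached 0.5.

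**Figure D5:**
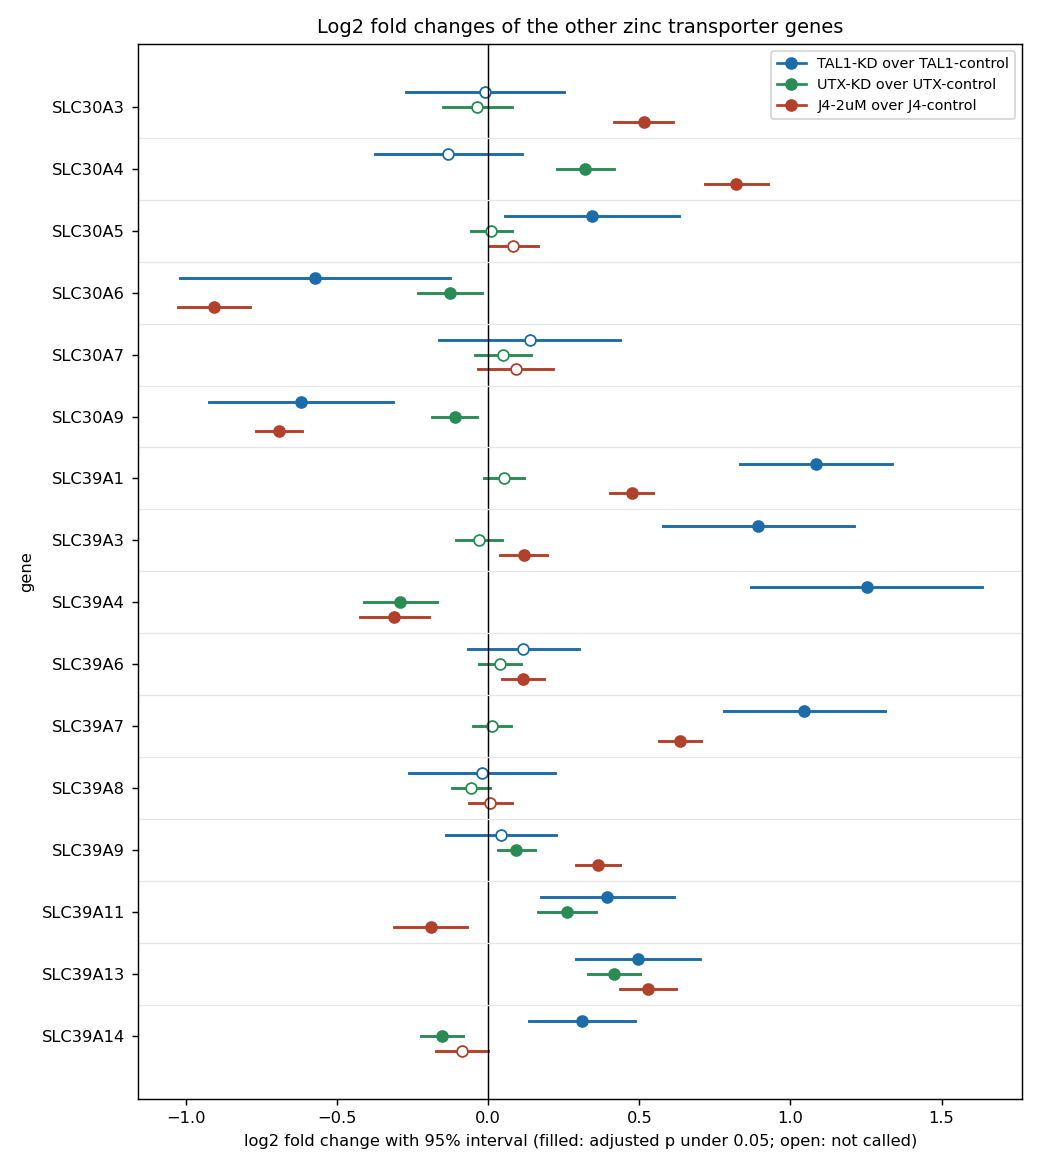
Log2 fold changes (x axis) with 95% intervals of the other SLC30 exporter and SLC39 importer genes above 1 CPM, in the 3 comparisons; filled points have an adjusted p under 0.05. No value reaches the 2.60 of SLC30A1 with GSK-J4, and the importers SLC39A1, SLC39A3, SLC39A4 and SLC39A7 are farthest right in the TAL1 comparison.

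Copper genes were followed since metallothioneins also bind copper. Of the 10 copper handling genes, all tested, 4 were called higher and 5 lower with GSK-J4, with a median log2 fold change of -0.10, against 37.9% higher and 36.9% lower over all genes tested. ATOX1, the chaperone that hands copper to the export pumps, fell by 0.65 (SE 0.05) and SCO1, which serves cytochrome oxidase assembly, by 0.39 (SE 0.04). The copper pump gene ATP7B rose by 0.41 (SE 0.04) and the copper importer gene SLC31A1 by 0.31 (SE 0.03). In libraries labelled TAL1-KD 6 were called higher and 0 lower, against 26.3% and 27.9% of all genes, with SLC31A1 at 0.58 (SE 0.08), COX17, a copper chaperone of cytochrome oxidase, at 1.04 (SE 0.15), ATOX1 at 0.70 (SE 0.13) and SCO2 at 0.52 (SE 0.13). In libraries labelled UTX-KD 3 were called higher and 4 lower, against 25.2% and 25.3% of all genes, with CCS, the copper chaperone of superoxide dismutase, at 0.39 (SE 0.05) and COX17 at -0.33 (SE 0.04). Over the 5 lists together, 14 of 27 genes tested were called higher and 2 lower in TAL1-KD libraries, against 26.3% and 27.9% of all genes. Both counts moved with a library left out, and so did the counts over all genes.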

How the data were processed

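The labels put the 12 Jurkat mRNA libraries into 6 groups of 2. Per the submitters' processing notes, the tools were HTSeq 0.6.1p1, TopHat2 2.0.12 and DESeq2, with no version given for the last, and the build was hg19; the annotation, strand setting and treatment of reads with several positions are not given in the sources used here. The authors deposited 1 table per comparison with raw read counts per Ensembl gene, not normalized, for 4 libraries, and each gene listed had at least 1 read. The authors' deposited log2 fold changes, standard errors and p-values are printed only where named. The deposited mean signal and the test score were not used. One marker gene is not reported here.

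Counts were filtered with filterByExpr (minimum count 10), scaled by TMM and tested with the two-sided quasi-likelihood test of edgeR 4.0.16 in R 4.3.3, each comparison alone, with Benjamini-Hochberg adjustment over all genes tested (16829 for TAL1, 16847 for UTX, 17907 for GSK-J4) and a threshold of 0.05. Differences between responses were fitted over 8 libraries. The standard error is the log2 fold change over the root of F. The procedure was tested on simulated data in which far fewer genes were changed than were called here. Of 67 genes changed 1.5-fold, it called 61.19% for TAL1, 74.63% for UTX and 70.15% for GSK-J4. For differences between responses it called 52.24% (GSK-J4 minus TAL1-KD), 61.19% (GSK-J4 minus UTX-KD) and 50.75% (TAL1-KD minus UTX-KD). A change of that size can therefore be missed. CPM use TMM-scaled library sizes. Intervals on ratios of reads cover counting error only, and the floor of 3 reads covers that of the control group alone. Exon-union length and shared windows came from GENCODE 29, and promoters from RefSeq. All 9 genes, and of each list up to 4 called genes with the smallest adjusted p, could be named; SLC30A2, SLC30A8, MT1JP, the markers named singly, AC026461.1 and further called genes that complete a count were named after their values were seen. The genes and lists were chosen with earlier results of these data known. Alternatives were other scalings, tests (DESeq2 1.42.0), filters, thresholds, a replicate block, a length and GC offset and each library left out.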

Additional observations from a re-analysis of the deposited data

Results flagged for a closer look

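Each difference below is between the responses in 2 comparisons and is given on the log2 scale. All but that of MT1E are given because they passed the test of the difference itself (edgeR quasi-likelihood test of the interaction, adjusted p under 0.05). The comparisons also differ in cell line and, for GSK-J4, in medium and vehicle, and these cannot be told apart.

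The GSK-J4 response minus the TAL1-KD response was 2.21 for MT2A, 1.95 for MT1X, 2.38 for MT1F, 1.59 for SLC30A1, -0.64 for MTF1 and -1.01 for SLC39A10. MT1E entered the GSK-J4 fit only through its J4-2uM libraries and had 5 reads in the TAL1 comparison. Its fitted difference of 6.97 (SE 1.51) is therefore not counted as a passed test. Without the second TAL1-control library the call of MT1F was lost. The GSK-J4 response minus the UTX-KD response was 3.45 for MT2A, 3.19 for MT1X, 3.05 for MT1F, 2.43 for SLC30A1 and -0.29 for SLC39A10. The TAL1-KD response minus the UTX-KD response was 1.24 for MT2A, 1.23 for MT1X, 0.83 for SLC30A1, 0.71 for SLC39A10 and 0.60 for MTF1.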

How the results depend on the processing

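With GSK-J4, 4 members were called higher in the fit, and 5 with MT1E, which had to differ. The count was 4 at 1 CPM or more in at least 2 libraries, which drops MT1E. With no filter it was 6, with MT1E and MT1G counted. The lower calls with GSK-J4 were 1 in the fit and 2 with DESeq2 size factors and with the length and GC offset, alone or with the replicate block. Over all genes these lower calls were 6616 of 17907 in the fit, 6729 with DESeq2 size factors and 6747 of 17326 with the offset. A library left out moved the higher calls of TAL1-KD and the lower calls of GSK-J4. With UTX-KD, the higher call was 0 in the DESeq2 Wald test, at an adjusted p under 0.01 and at a minimum log2 change of 0.5, and 0 to 1 with a library left out; the 2 lower calls were 0 at that minimum. The GSK-J4 minus TAL1-KD differences called above 0 numbered 4 with MT1E left out, and that count changed with a library left out. In the other lists, TAL1-KD gave 14 higher calls, 8 at 0.01 and at the 0.5 minimum and 8 to 17 with a library left out, and 2 lower, 1 with the offset (with or without the block) and at 0.01 and 2 to 6 with a library left out. Of 27 genes tested, UTX-KD gave 7 higher calls, 0 at the minimum. It gave 8 lower, 5 with upper-quartile scaling and at 0.01 and 0 at the minimum. GSK-J4 gave 6 higher and 3 lower at the minimum. Over all genes, UTX-KD lower calls were 4269 of 16847 in the fit and 3662 with upper-quartile scaling. TAL1-KD higher calls over all genes were 4424 in the fit and 2431 to 5869 with a library left out. The lower ones were 4696 in the fit, 3881 with the offset and 3094 to 6083 with a library left out. All-gene counts at 0.01 and at the minimum are not given. MT1F, not called for TAL1-KD, UTX-KD or their difference, changed sign: in TAL1-KD with a library left out (-0.049 to 1.08), in UTX-KD with DESeq2 size factors (-0.0047), the offset (-0.041), the offset with block (-0.016) and a library left out (-0.35 to 0.68), and in their difference (-0.037 to 1.11, a library left out); the cause of these changes was not tested. The median of all genes moved to 0.14 with upper-quartile scaling and to -0.09 with the offset, against 0.03, for GSK-J4 minus TAL1-KD, to -0.18 and 0.10, against -0.03, for TAL1-KD minus UTX-KD, and to 0.09 with the offset, against -0.02, for TAL1-KD; no called member changed sign. Higher calls were 58.7% of all genes' calls with the offset, against 48.5%, for TAL1-KD, and 35.0% with upper-quartile scaling and 61.8% with the offset, against 49.9%, for TAL1-KD minus UTX-KD. Levels per longest transcript kept the order of the genes in each group. Replicate numbers were not shown to pair samples (correlation of replicate differences 0.0673 for TAL1, 0.0383 for UTX, -0.0291 for GSK-J4). The replicate block left the members' counts as they were. These were 5 higher and 0 lower with TAL1-KD, and 1 higher and 2 lower with UTX-KD. With GSK-J4 they were 5 higher, MT1E counted, and 1 lower. Depth limits MT1E, MT1G, MT1M and, outside GSK-J4, MT1F.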
